A study of Mus musculus with 3 samples.

Results

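The genes described here encode the constant parts of mouse antibodies and the J chain that links antibody units into polymers. There were 10 of them among the 55357 genes of the count matrices, chosen by symbol: the light chain genes Igkc, Iglc1 and Iglc2, the heavy chain genes Ighm, Ighd, Igha, Ighg1, Ighg2b and Ighg2c, and Jchain. The list had been drawn up with UMI counts of these libraries already known, so the levels below are a description and carry no test. Single-cell RNA sequencing was run on livers of male wild-type C57BL/6 mice aged 8 weeks at the start, with hepatocytes and non-parenchymal cells mixed 1 to 1, and each library pooled 2 mice. The control library (CON) came from mice that received neither treatment. The high-fat diet library (HFD) came from mice fed a diet with 60% of its energy as fat for 4 months. The CCl4 library (CCL4) came from mice kept on chow for 3 months and then injected with 0.1 mL of 10% carbon tetrachloride, a toxin that injures hepatocytes, 2 times a week for 4 weeks. No genotype differed between the groups. With 1 library for each condition, a difference between conditions cannot be told apart from a difference between libraries or between the pooled mice.

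An antibody consists of heavy chains, whose constant region sets its class, and light chains of the kappa or lambda kind. A mature B cell carries IgM and IgD on its surface, made by splicing the same rearranged variable region to Ighm or Ighd. After activation a B cell can switch its heavy chain to a downstream constant gene, which removes the genes in between, and its descendants may become plasma cells, which devote much of their RNA to secreted antibody. IgA and pentameric IgM are joined by the J chain, and in the liver polymeric IgA is carried toward bile. The C57BL/6 strain carries Ighg2c in place of Ighg2a, and no row of the matrices bore the symbol Ighg2a.

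The libraries held 11245, 12984 and 12761 barcodes for CON, HFD and CCL4, with 49613255, 34985786 and 34061186 UMIs (unique molecular identifiers, each standing for a captured RNA molecule) and medians of 2939, 2336 and 2173 UMIs per barcode. Clusters were formed without any immunoglobulin gene among the variable genes, and were named from marker genes. Each cell was scaled to its total UMIs before the immunoglobulin genes were left out. The genes described here thus entered the clustering and naming only through that total. Of 38 clusters, 1 was plasma cell-like, with 11 of its 12 listed markers raised and with Slpi, Tnfrsf17 and Pou2af1 in the lead, and 4 were B cell-like. The plasma cell-like cluster held 26, 265 and 70 cells of CON, HFD and CCL4, and the B cell-like clusters held 1023, 786 and 1038. Each library supplied nearly all cells of its own large B cell-like cluster (938 of 939, 738 of 751 and 928 of 928), so B cell-like values of different libraries come from different clusters. The remaining B cell-like cluster was led by Ebf1 together with Ccl5 and Gzma, genes of cytotoxic lymphocytes, and had 85, 47 and 97 cells. All 12 plasma cell markers were detected in the plasma cell-like cells of every library, and Pax5 was at 0 UMIs in all of them. Tnfrsf17, the receptor BCMA of plasma cells, was at 0 UMIs in the B cell-like cells of CON and CCL4. Other markers were shared. In B cell-like cells of CON, HFD and CCL4, 11, 12 and 11 of the 12 plasma cell markers were detected. Of these, 4, 5 and 4 were over 50 CPM (UMIs scaled to 1000000 UMIs of the same cells). In plasma cell-like cells, 9, 11 and 9 of the 12 B cell markers were detected, with 5, 5 and 4 over 50 CPM. Summed hepatocyte markers reached 7210, 38399 and 56830 CPM in the plasma cell-like cells of CON, HFD and CCL4, and 34884, 95107 and 120298 CPM in the B cell-like cells. The part of this hepatocyte RNA in the values below was not tested. Fewer than 60 barcode sequences were common to any pair of libraries (36, 49 and 52).

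The genes lie on 4 chromosomes. In GENCODE M21 (GRCm38) the heavy chain constant genes sit on the minus strand of chromosome 12 between Igha (chr12:113254830-113260236) and Ighm (chr12:113418558-113422730), Igkc is at chr6:70726435-70726966, Iglc1 at chr16:19061618-19062071, Iglc2 at chr16:19198396-19200351, and Jchain at chr5:88519809-88527891. The matrices carry no coordinates, and the sources name different builds for them, so these positions describe the annotation and not the counting. The last 120 annotated coding bases of the lambda constant genes are shown because reads from the ends of these transcripts have to tell the genes apart. Capitals mark the positions at which the 3 sequences are not all the same, 39 of 120.
Iglc1: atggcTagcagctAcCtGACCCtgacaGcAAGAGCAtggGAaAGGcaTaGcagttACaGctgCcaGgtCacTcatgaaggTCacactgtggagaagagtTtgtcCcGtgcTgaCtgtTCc
Iglc2: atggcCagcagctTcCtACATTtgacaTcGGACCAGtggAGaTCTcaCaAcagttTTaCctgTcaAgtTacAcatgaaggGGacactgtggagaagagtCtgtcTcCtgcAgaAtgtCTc
Iglc3: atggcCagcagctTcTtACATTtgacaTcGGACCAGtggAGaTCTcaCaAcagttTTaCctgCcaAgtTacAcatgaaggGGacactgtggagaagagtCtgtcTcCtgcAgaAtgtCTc

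Iglc2 and Iglc3 differed at only 2 of these 120 bases and were 96.3% identical over their last 300 coding bases, while Iglc1 differed from either at 38 of 120. Reads from these bases of Iglc2 and Iglc3 may therefore not always be assigned to the right gene. Bases past the coding end were not compared and the assignment was not tested, so their split is uncertain. The same stretch of the IgG genes, again 5′ to 3′ with capitals at the 61 of 120 positions that are not shared by all, shows genes that differ more.
Ighg1: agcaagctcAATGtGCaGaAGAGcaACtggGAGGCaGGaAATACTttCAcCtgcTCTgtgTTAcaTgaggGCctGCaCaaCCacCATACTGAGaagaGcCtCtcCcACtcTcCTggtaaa
Ighg2b: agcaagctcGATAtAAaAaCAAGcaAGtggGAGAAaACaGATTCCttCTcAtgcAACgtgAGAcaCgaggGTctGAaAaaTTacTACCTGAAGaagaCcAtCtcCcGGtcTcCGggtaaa
Ighg2c: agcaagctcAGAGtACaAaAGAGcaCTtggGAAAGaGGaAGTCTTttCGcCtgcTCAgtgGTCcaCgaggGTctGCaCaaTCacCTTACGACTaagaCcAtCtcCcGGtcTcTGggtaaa
Ighg3: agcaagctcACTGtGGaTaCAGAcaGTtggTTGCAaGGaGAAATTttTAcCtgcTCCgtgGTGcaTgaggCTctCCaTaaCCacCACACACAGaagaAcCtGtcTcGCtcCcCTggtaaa

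Between pairs of IgG genes, 61.7% to 75% of these 120 bases were identical.

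The genes were concentrated in plasma cell-like cells. They accounted for 29.95% of all UMIs of these cells in CON, 34.0% in HFD and 25.2% in CCL4, against 0.631%, 0.348% and 0.295% in B cell-like cells. Plasma cell-like cells made up 0.232%, 2.04% and 0.549% of the cells, and held 73.2%, 90.2% and 81.3% of the UMIs of the 10 genes in their libraries. Over all cells the genes took 0.178% of the UMIs in CON, 1.26% in HFD and 0.214% in CCL4. Intervals here and below are exact 95% limits for counting error in the library only. The share of cells in the plasma cell-like cluster had intervals of 0.152% to 0.340% in CON, 1.81% to 2.30% in HFD and 0.428% to 0.693% in CCL4, which do not overlap. From cell to cell the share of UMIs in the 10 genes ran from 0.300% to 69.6% in CON with a median of 24.2%, from 1.79% to 60.5% in HFD with a median of 34.7%, and from 2.32% to 47.3% in CCL4 with a median of 25.9%. Single cells thus spread far more than the 3 medians did.

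**Figure D1:**
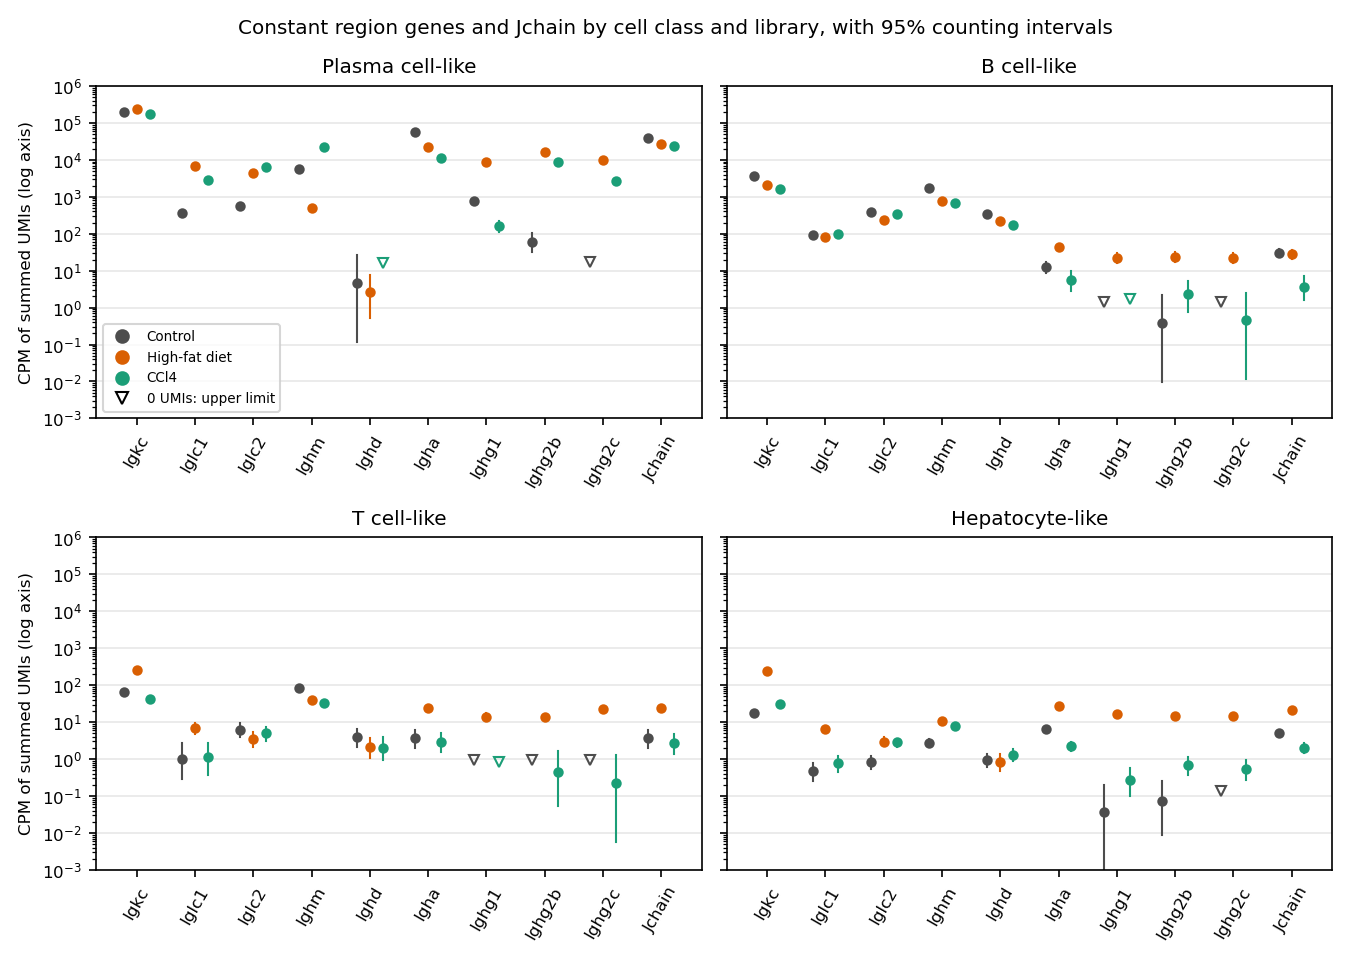
Level of each gene (horizontal axis) as CPM of UMIs summed over the cells of a class (vertical axis, log scale), in 4 cell classes and 3 libraries; vertical lines are exact 95% Poisson limits, open triangles the upper limit where no UMI was found, and barcodes with at least 5% of their UMIs in the 10 genes are left out of the T cell-like and hepatocyte-like panels. Igkc stood at 195533, 243495 and 173937 CPM in plasma cell-like cells and at 3657, 2023 and 1652 CPM in B cell-like cells, while Ighd was present in B cell-like and all but missing in plasma cell-like cells.

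Heavy chains came next after kappa light chains, and the 3 libraries differed most in them. A cell was assigned a main heavy chain when it had at least 5 heavy chain UMIs and 1 gene held over 50% of them, which was so for 26 of 26, 264 of 265 and 70 of 70 plasma cell-like cells. Igha, which encodes the heavy chain of IgA, the antibody of mucosal surfaces and bile, was the main heavy chain of 23 cells of CON (88.5%, interval 69.9% to 97.6%), 128 of HFD (48.5%, 42.3% to 54.7%) and 22 of CCL4 (31.4%, 20.9% to 43.6%). When each library was clustered on its own CON had no plasma cell-like class, so its values depend on clustering the libraries together. The interval of CON does not overlap the other 2, and those of HFD and CCL4 overlap at their edges. By UMIs the share of Igha was 90.1% of 13973 heavy chain UMIs in CON, 38.2% of 68691 in HFD and 23.3% of 11188 in CCL4. Igha was thus the most frequent single gene in CON and in HFD and not in CCL4, and the largest number of them was in HFD.

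Ighm, the heavy chain of IgM, was the main heavy chain of 2 cells in CON, 2 in HFD and 27 in CCL4, where it was the most frequent (38.6%, 27.2% to 51.0%). It held 8.67%, 0.844% and 48.2% of the heavy chain UMIs. In CON, 1158 of the 1211 Ighm UMIs came from 1 cell, in which Ighm was the sole heavy chain detected, and the other Ighm cell of CON had 7 heavy chain UMIs and 0.300% of its UMIs in the 10 genes. In CCL4 no cell had more than 588 of the 5394 Ighm UMIs, and the 8 cells with most of it were needed to reach 50%. The Ighm level of the CON class thus rests on 1 cell, which is not so in CCL4.

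The IgG genes Ighg1, Ighg2b and Ighg2c, which encode the classes most abundant in serum, set HFD apart. Together with Ighg3 they were the main heavy chain of 134 HFD cells (50.8%, 44.6% to 56.9%), 21 CCL4 cells (30%, 19.6% to 42.1%) and 1 CON cell (3.85%, 0.0973% to 19.6%). In HFD these were 55 cells of Ighg2b, 40 of Ighg1, 38 of Ighg2c and 1 of Ighg3. In CCL4 they were 13 of Ighg2b, 5 of Ighg2c, 2 of Ighg3 and 1 of Ighg1. Ighg1 thus had 15.2% of the heavy chain UMIs in HFD (14.98% to 15.52%) and 0.331% in CCL4 (0.233% to 0.456%), while Ighg2b had 27.9% and 18.6%. In CON, Ighg2c had 0 of 13973 heavy chain UMIs, which allows a level of up to 17.1 CPM, and 146 of the 161 Ighg1 UMIs came from 1 cell. In CCL4 all 37 Ighg1 UMIs came from 1 cell. The HFD Ighg1 UMIs were spread more widely, since 12 cells were needed to reach 50% of 10472.

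**Figure D2:**
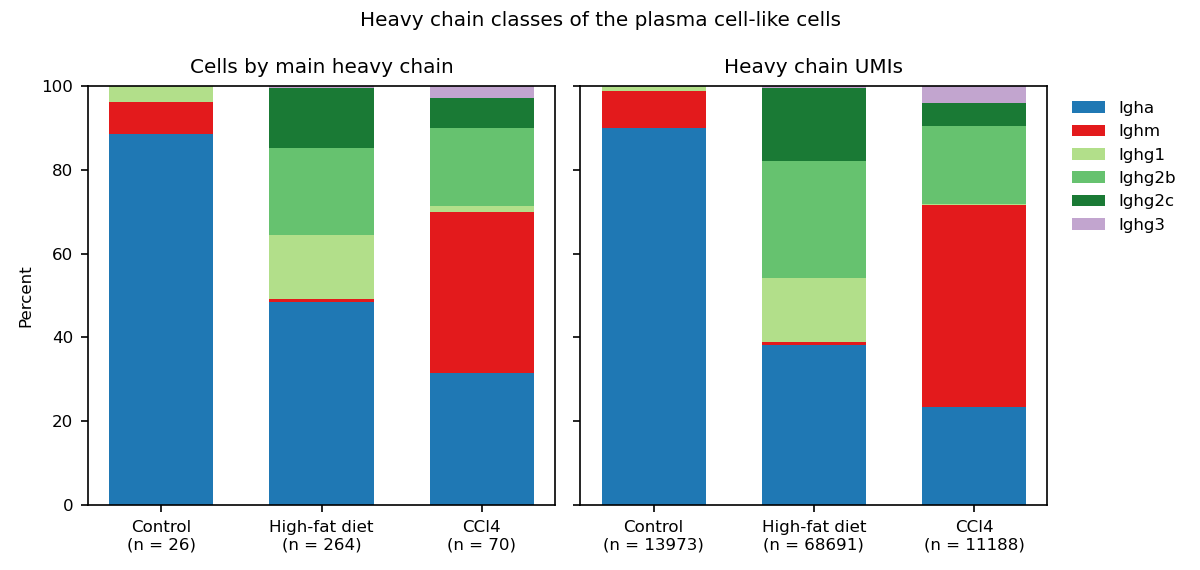
Percent of plasma cell-like cells by main heavy chain (left) and percent of heavy chain UMIs (right) in each library, with the number of cells or UMIs under each bar; colours are the heavy chain genes. Igha fills 88.5% of the CON cells, the IgG genes 50.8% of the HFD cells, and Ighm 38.6% of the CCL4 cells.

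Most plasma cell-like cells carried RNA of a single heavy chain class. The main heavy chain held a median of 100%, 99.8% and 100% of the heavy chain UMIs of a cell in CON, HFD and CCL4. The lowest cell stood at 88.6% in CON and at 84.1% in CCL4. In HFD the lowest was the cell without a main heavy chain, in which Ighg1 had 318 and Ighg2b 323 of 651 heavy chain UMIs, and which had 9342 UMIs in all against a class median of 4175. Whether this barcode held 2 cells was not tested. Assigned cells of HFD went down to 62.5% for Igha and 52.4% for IgG. Ighd, which marks B cells that have not switched, had 1, 3 and 0 UMIs in the plasma cell-like cells. Ighe, the heavy chain of IgE and outside the list, had 10 UMIs in HFD and none in the other libraries.

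Light chains were mostly kappa. Igkc was the main light chain of 26 of 26, 255 of 265 and 67 of 70 plasma cell-like cells. The lambda genes were the main light chain of 10 cells in HFD (3.77%, 1.82% to 6.83%) and 3 in CCL4 (4.29%, 0.893% to 12.0%), and of 0 of 26 in CON, which allows up to 13.2%. Of the 10 HFD cells, Iglc1 led in 5 and Iglc2 in 5. A few cells made most of the lambda UMIs: 2 cells held at least 50% of the 7745 Iglc1 UMIs of HFD, and 1 cell held 62.0% of the 689 Iglc1 UMIs of CCL4. The ratio of light to heavy chain UMIs in a cell had a median of 2.98 in CON, 4.22 in HFD and 4.21 in CCL4, so light chain transcripts outnumbered heavy chain transcripts in the typical cell of every library.

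In B cell-like cells the share of lambda was higher by UMIs than by cells. Lambda genes held 14.7%, 16.8% and 24.1% of the light chain UMIs in CON, HFD and CCL4, with intervals of 14.0% to 15.4%, 15.7% to 17.9% and 22.9% to 25.3%. They were the main light chain of 24 of 839, 6 of 405 and 28 of 320 cells that could be assigned. Assignment needed 5 light chain UMIs, which many B cell-like cells lack. The 3 lambda genes, 2 of them nearly the same over the coding bases shown, are each counted on their own. Whether the share by cells misses lambda cells for these reasons was not tested. At least 1 Iglc2 UMI was seen in 52%, 35.5% and 38.6% of all B cell-like cells of CON, HFD and CCL4. Iglc2 was the highest lambda gene, at 396, 241 and 345 CPM, above Iglc1 at 92.3, 81.1 and 99.1 CPM. The intervals of Iglc2 and Iglc1 did not overlap in any library.

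Ighm and Ighd, the pair of classes on mature B cells, led the heavy chains of B cell-like cells. Ighm stood at 1784 CPM in CON (1732 to 1836), 764 in HFD (725 to 805) and 668 in CCL4 (634 to 703). Ighd stood at 333 CPM (311 to 356), 226 (204 to 249) and 173 (156 to 191). Ighm was the main heavy chain of 457 of 482, 105 of 114 and 63 of 68 assigned B cell-like cells. Both genes were highest in CON and lowest in CCL4, and the intervals did not overlap between libraries. Igkc followed the same order at 3657, 2023 and 1652 CPM. The share of B cell-like cells with an Igkc UMI was 95.99%, 95.04% and 83.04% at full depth, and 89.1%, 79.5% and 66.3% when each cell was thinned to 1000 UMIs. Beside this, the B cell-like classes came from different clusters in the 3 libraries and differed in hepatocyte marker RNA, and the part of either in these differences was not tested.

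Against control, few of the genes passed a ratio of 2 in B cell-like cells. Genes were counted when they had at least 50 CPM in either class or library compared, and called at a ratio of at least 2 or at most 0.5. For HFD against CON, 5 of the 10 genes were counted, 0 were higher (background 11.4% of 3646 genes) and 1, Ighm at a ratio of 0.428, was lower (background 23.4%). For CCL4 against CON, 0 of 5 were higher (background 12.1% of 3592 genes) and 2, Ighm at 0.375 and Igkc at 0.452, were lower (background 31.5%). Ighd had ratios of 0.677 and 0.518. The median ratio of the 5 genes was 0.609 and 0.518, beside 0.834 and 0.726 over all genes counted. Iglc1 was above those medians in both comparisons, at 0.878 and 1.07, as was Iglc2 in CCL4 at 0.871, and the shares of the 5 genes that were lower are close to the background. Both comparisons use the same control library.

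In plasma cell-like cells the same comparison moved genes in both directions. For HFD against CON, 5 of 9 counted genes were higher (background 14.7% of 2882 genes) and 2 were lower (background 29.8%). The higher ones were Iglc1, Iglc2, Ighg1, Ighg2b and Ighg2c, with Ighg1 at 8960 against 747 CPM and Ighg2b at 16411 against 60.3 CPM. Ighg2c had 11950 UMIs in HFD and 0 in CON. The lower ones were Ighm at a ratio of 0.0884 and Igha at 0.384. For CCL4 against CON, 5 of 9 were higher (background 18% of 3032 genes) and 2 were lower (background 21.3%). The higher ones were Iglc1, Iglc2, Ighm, Ighg2b and Ighg2c, with Ighm at 22943 against 5615 CPM. The lower ones were Igha at 0.190 and Ighg1 at 0.211. All 37 Ighg1 UMIs of CCL4 came from 1 cell, so the Ighg1 ratio sets few cells against few cells. The single-cell sources named above apply to the control values of Ighm and Ighg1, and the lambda values rest on few cells, since 3, 2 and 1 cells reached 50% of the Iglc1 UMIs and 6, 3 and 1 cells 50% of the Iglc2 UMIs of CON, HFD and CCL4. Igkc differed little, at ratios of 1.25 and 0.890.

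The ratios of Igha were nearer to 1 among cells chosen for Igha as the main heavy chain, which that choice partly sets in advance. Among cells whose main heavy chain was Igha, the Igha level was 63918 CPM in CON, 51064 in HFD and 38982 in CCL4, so the HFD to CON ratio was 0.799 in place of 0.384, and the CCL4 to CON ratio 0.610 in place of 0.190. In the same cells Jchain was at 39991, 37807 and 24663 CPM, and Igkc at 200363, 208830 and 130634 CPM. In HFD the ratios to CON were 0.945 for Jchain and 1.04 for Igkc, and in CCL4 they were 0.617 and 0.652, so the Igha cells of CCL4 were lower in all 3 genes. For the whole plasma cell-like class, not the Igha cells alone, the median ratio to CON over all genes counted was 0.6885 in HFD and 0.809 in CCL4. The part of hepatocyte RNA in these ratios was not tested.

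Set against B cell-like cells of the same library, nearly all of the genes were higher in plasma cell-like cells. In CON, 7 of 9 counted genes were higher (background 11.2% of 3658 genes) and 1 was lower (background 33.1%). In HFD, 8 of 10 were higher (background 6.63% of 2911 genes) and 1 was lower (background 34.1%). In CCL4, 9 of 10 were higher (background 10.8% of 2854 genes) and 1 was lower (background 21.3%). The lower one was Ighd each time. Igkc was higher by 53.5, 120 and 105 times, and Igha by 4663, 518 and 2023 times. The Igha ratios depend on B cell-like levels of 12.5, 43.3 and 5.48 CPM, which are near those of free RNA described below, and the HFD ratio was 190.5 when each library was clustered on its own. The gene that did not keep a side was Ighm. Its ratio was 3.15 in CON (2.95 to 3.35), 0.649 in HFD (0.588 to 0.716) and 34.4 in CCL4 (32.4 to 36.4). The HFD ratio was 0.982 when values were scaled to UMIs outside the 10 genes and mitochondrial genes. Of the 1211 plasma cell-like Ighm UMIs of CON, 1158 came from 1 cell. Of the 580 in HFD, 205 and 162 came from the 2 cells with Ighm as the main heavy chain. The CON and HFD levels thus rest on few cells, and the intervals do not cover the spread between cells. Whether Ighm keeps a side without these cells was not tested. In CON, Iglc2 was at a ratio of 1.45 and did not pass 2.

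Jchain, the small protein that joins IgA dimers and IgM pentamers, was found in 25 of 26, 264 of 265 and 68 of 70 plasma cell-like cells. Its level was 38220 CPM in CON (37399 to 39054), 26854 in HFD (26558 to 27153) and 23135 in CCL4 (22524 to 23758). Cells with IgG as the main heavy chain also contained it, but less of it. In HFD, Jchain was a median of 3.23% of the UMIs of 128 Igha cells, with quartiles of 1.60% and 5.79%, and 1.47% of those of 134 IgG cells, with quartiles of 1.01% and 2.06%. In CCL4 the medians were 2.04% in 22 Igha cells, 2.65% in 27 Ighm cells and 1.21% in 21 IgG cells. The 23 Igha cells of CON had a median of 3.11%. Cells of the 2 kinds overlapped widely, since IgG cells of HFD reached 6.73% and Igha cells went down to 0. Taken as a share of the UMIs outside the constant region genes, the HFD medians were 4.46% and 2.26%. Among IgG genes of HFD the medians were 1.15% for Ighg1, 1.60% for Ighg2b and 1.61% for Ighg2c.

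**Figure D3:**
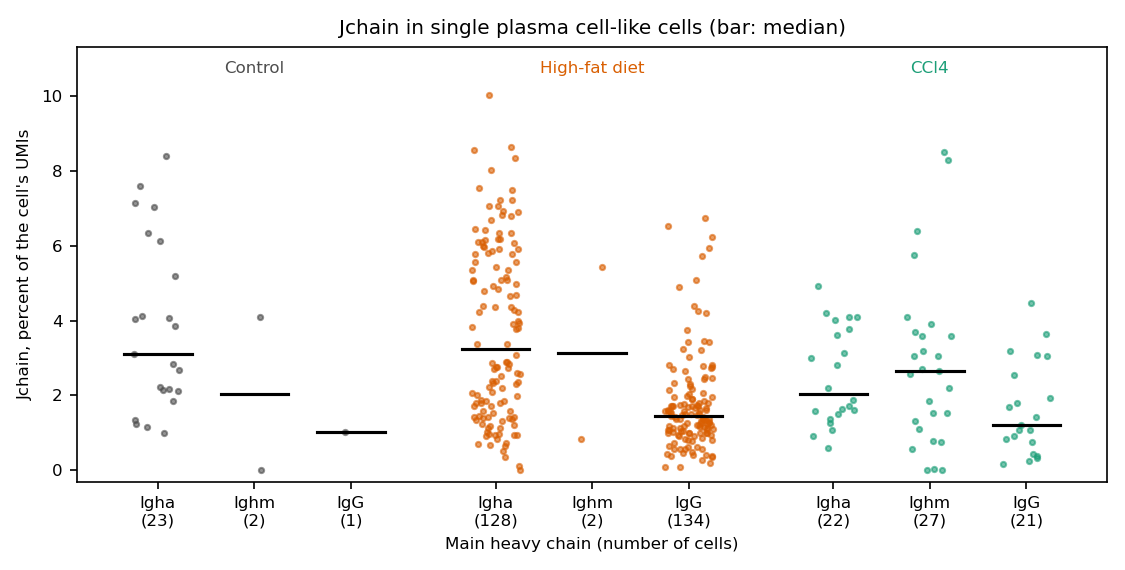
Jchain as percent of the UMIs of each plasma cell-like cell (vertical axis), by library and main heavy chain (horizontal axis, number of cells in brackets); points are cells and bars medians. In HFD the Igha cells have a median of 3.23% and the IgG cells of 1.47%, with overlapping points, and in CCL4 the Ighm cells have the highest median at 2.65%.

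The cells of different classes also differed in other genes. Within HFD, cells with Igha and cells with IgG as the main heavy chain were compared over 2251 genes with at least 50 CPM in either. Of the 10 genes, 9 were counted, 3 were higher in the Igha cells (background 5.86%) and 4 were lower (background 1.82%). Of these 7, Igha itself and the 3 IgG genes defined the groups and say nothing more. The others were Jchain, at 37807 against 18243 CPM (ratio 2.07, 2.03 to 2.12), Iglc2, at a ratio of 2.70 and carried by a few lambda cells, and Ighm, at 62.5 against 279 CPM. The other genes named for this pair are those with the 5 largest and 5 smallest ratios and some from the fixed lists, and they were chosen after their values were seen. Outside the immunoglobulin genes the lowest ratio was that of Slpi, which encodes a secreted inhibitor of leukocyte proteases. It had 1896 CPM in the Igha cells and 29980 CPM in the IgG cells, was detected in 59 of 128 and 120 of 134 cells, and stood at 24714 CPM in Ighg1 cells, 33337 in Ighg2b cells and 31010 in Ighg2c cells. In CCL4 the values were lower but in the same order, 60.0 CPM with 4 UMIs in the Igha cells and 3111 CPM with 246 UMIs in the IgG cells, of which 109 came from 1 cell.

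Ly6c2, a surface protein found on plasma cells and monocytes, was also lower in the Igha cells, with 193 against 807 CPM in HFD and 285 against 1012 CPM in CCL4. Oosp1, Cxcr4, the receptor that guides plasma cells to bone marrow, and Ms4a1, which encodes the B cell protein CD20, were the other lowest, with ratios of 0.125, 0.214 and 0.250 in HFD. In CCL4 they had only 0, 1 and 1 UMIs in the Igha cells and 5, 5 and 6 in the IgG cells. The highest ratios in HFD belonged to S100a9, S100a6, Ptp4a3, S100a8 and Cxcl10. Of these, S100a9 and S100a8, the calprotectin genes of neutrophils, came almost wholly from 1 cell, with 54 of 64 and 38 of 40 UMIs, while the S100a6 UMIs were spread over 33 cells. In CCL4, S100a6 had 270 against 50.6 CPM, from only 18 and 4 UMIs, while Cxcl10 had 1 UMI in the Igha cells and 4 in the IgG cells. Tnfrsf17 had 338 against 99.8 CPM in HFD, from 173 and 64 UMIs. In CCL4 it had 435 against 37.9 CPM, from only 29 and 3 UMIs. Itgb7, part of the integrin that binds gut vessels, had 70.3 against 17.2 CPM in HFD, from 36 and 11 UMIs. In CCL4 Itgb7 had only 3 UMIs in the Igha cells and 2 in the IgG cells. Cells of 1 library are not replicates of a condition, so these values describe the cells of these pools. In CCL4, where Ighm cells could be set beside Igha cells, Jchain stood at 28499 and 24663 CPM (ratio 1.16, 1.09 to 1.23). The largest ratios of that pair rested on few UMIs, such as 18 against 0 for Ctss, a lysosomal protease, and 13 against 0 for Lmo4.

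Genes that serve antibody folding and export went with the constant region genes. Of 14 listed, 13 were counted in each library and 13, 12 and 11 were higher in plasma cell-like than in B cell-like cells of CON, HFD and CCL4, none lower (background 11.2%, 6.63% and 10.8% higher), with median ratios of 8.86, 7.10 and 5.87 beside 0.706, 0.591 and 0.770 over all genes counted. Derl3, which draws misfolded proteins out of the endoplasmic reticulum, had the largest ratios, 102, 105 and 47.3. Creld2, Txndc5, a disulfide isomerase, and Hsp90b1, the chaperone GRP94, had ratios of 24.2, 20.99 and 10.3 in CON. Herpud1, of the same list, had 496 against 276 CPM in HFD and 851 against 760 CPM in CCL4 and did not pass 2 there. Of the 8 plasma cell fate genes, all counted, 6, 7 and 7 were higher and none lower. Prdm1, which encodes the repressor Blimp-1, had ratios of 49.2, 41.1 and 33.0, and Xbp1, which drives the secretory program, 3.25, 10.0 and 6.39. Several of these genes were markers used to name the cluster, so their counts are no independent evidence.

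Genes of mature B cells went the other way. All of the 10, 7 and 6 listed genes counted in CON, HFD and CCL4 were lower in plasma cell-like cells (background 33.1%, 34.1% and 21.3%, and for higher genes 11.2%, 6.63% and 10.8%). Pax5, which holds B cell identity, had 0 UMIs in plasma cell-like cells of all 3 libraries against 286, 119 and 87.7 CPM in B cell-like cells, and Ebf1 had ratios of 0.107, 0.118 and 0.0416. Pax5 and Ebf1, like Cd79a, Cd79b and Fcmr below, were among the markers used to name B cell-like clusters. Their values and the counts of this list are therefore no independent evidence. The partners that carry surface antibody behaved differently. Cd79b had ratios of 1.09, 1.08 and 1.63 and Cd79a of 0.419, 0.724 and 0.861, so only Cd79a in CON passed 0.5. Of the listed antibody receptors and transporters, Pigr, which moves polymeric IgA and IgM across epithelia, was lower in plasma cell-like cells at 46.4 against 183, 107 against 226, and 149 against 329 CPM. The summed hepatocyte markers given above were lower in the plasma cell-like cells as well, and their part in the Pigr values was not tested. Fcmr, the receptor of IgM on B cells, had 1, 1 and 0 UMIs in plasma cell-like cells. In that list of 12, none, none and 2 of the 5, 4 and 6 genes counted were higher, and 5, 4 and 3 were lower, against the same background. In HFD, 2 of 8 proliferation genes were counted and both were higher, and in CON and CCL4 4 of 5 counted were higher, with Mki67, a marker of dividing cells, at 241, 62.5 and 89.3 CPM in plasma cell-like cells. Of the 7 genes of class switching and hypermutation, none reached 50 CPM in any library. Of the 8 homing receptors, 6, 4 and 4 were counted, of which 4, 0 and 2 were higher and 2, 1 and 1 lower, and Ccr10 had 23 UMIs in the plasma cell-like and 0 in the B cell-like cells of CON.

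Outside the immunoglobulin genes, the largest ratios of plasma cell-like to B cell-like cells belonged to Tnfrsf17, Pycard and Derl3 in CON and to Slpi, Tnfrsf17 and Ly6c2 in HFD and CCL4. Slpi had 17471 against 26.8 CPM in HFD and 1489 against 3.20 CPM in CCL4. The smallest belonged to Pax5, Egr3 and Fcer2a in CON, to Pax5, Fcmr and Bank1 in HFD, and to Pax5, Fcmr and Ebf1 in CCL4. Across 38 combinations of cell class and library with at least 20 cells, the genes whose log level was most like that of Igha were Tnfrsf17 (Pearson r = 0.908), the pigment gene a (nonagouti) and Ccr10, a receptor for mucosal chemokines (0.867). For Jchain they were Tnfrsf17 (0.877), Cacna1s and a, and for Igkc Tnfrsf17 (0.817), Cacna1s and Pou2af1, a coactivator of immunoglobulin promoters (0.810). For Ighm they were Irf4 (0.845), Gm30211 and Tnfrsf13b (0.838). These correlations over 7553 genes are descriptions, since points of the same library share its free RNA and its depth. Plasma cell-like cells, where Igha, Jchain and Igkc were highest, gave only 1 point for each library. Tnfrsf17 and Derl3 were among the markers that named the plasma cell-like cluster, and Pax5, Fcmr, Bank1 and Ebf1 were B cell markers. Their places in this paragraph are therefore no independent evidence.

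Variable region genes were counted at lower levels than constant genes. In plasma cell-like cells, Igkv genes had 297, 2878 and 520 UMIs in CON, HFD and CCL4, and Ighv genes 30, 1154 and 90. A main Igkv gene could be assigned in 19, 173 and 34 cells, spread over 13, 51 and 17 genes. The most frequent were Igkv8-27 with 4 cells in CON, all of them Igha cells, Igkv10-96 with 12 cells in HFD, of Igha, Ighg1, Ighg2b and Ighg2c, and Igkv5-43 with 7 cells in CCL4, 5 of Ighg2b and 2 of Ighg2c. In CCL4, Igkv16-104 was the main gene of 5 cells, all of them Ighm cells. Whether cells that share a variable gene are a clone cannot be told from these counts. In HFD, Iglv1 led the lambda variable genes, with 2606 UMIs and 123 cells in which it was the main Iglv gene, although lambda was the main light chain of 10 cells. Cells with kappa as the main light chain held 2548 of the 2912 Iglv UMIs of HFD.

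Whether all UMIs of the 10 genes in T cell-like and hepatocyte-like cells are free RNA was not tested. The 2 classes differed in Ighm, as given below. Since these cell types do not make antibody, the UMIs were taken as a measure of free RNA in the droplets. Before that, barcodes outside the plasma cell-like cluster with at least 5% of their UMIs in the 10 genes were set apart, 2 of 11179 in CON, 18 of 12717 in HFD and 11 of 12688 in CCL4, with shares up to 41.1%, 45.8% and 45.1%. A median of 6.5, 7 and 3 of the 12 plasma cell markers was detected in them, and they lay in 2, 7 and 5 classes, an unnamed one counted as a class. Without them the genes summed to 166, 411 and 91.3 CPM in T cell-like cells and to 34.4, 359 and 49.4 CPM in hepatocyte-like cells of CON, HFD and CCL4. With them the sums were 759, 659 and 307 CPM, and 34.4, 551 and 124 CPM. In T cell-like cells of CON, 1 barcode of 11175 UMIs supplied 2302 of the 2944 UMIs of the genes.

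Summed over the 10 genes and without the barcodes set apart, the level taken as free immunoglobulin RNA was highest in HFD in both classes. In CON, 49.4% of the T cell-like UMIs of the 10 genes were Ighm, against 8% in hepatocyte-like cells. Not every gene followed the sum. In T cell-like cells Ighm stood at 39.4 CPM in HFD and 81.9 in CON, Iglc2 at 3.51 and 6.20, and Ighd at 2.15 and 3.88. At least 1 UMI of the 10 genes was seen in 55.7% of hepatocyte-like cells of HFD, against 10.1% in CON and 9.32% in CCL4. When each cell was thinned to 1000 UMIs the shares were 29.1%, 2.32% and 3.83%. In T cell-like cells they were 57.6%, 24.4% and 14.0% at full depth, and 31.9%, 11.4% and 7.45% when thinned, with no cell too shallow to enter. All of these values are given for HFD first, then CON, then CCL4. In hepatocyte-like cells CON was above CCL4 at full depth and below it when thinned. In the same order the median depths were 2293, 3798 and 2284 UMIs in hepatocyte-like cells and 2214, 2397 and 2020 UMIs in T cell-like cells. Igha in B cell-like cells has to be read against this. Without the barcodes set apart it stood at 12.5, 43.3 and 5.04 CPM in B cell-like cells, and at 6.34, 27.8 and 2.24 CPM in hepatocyte-like cells of CON, HFD and CCL4, with ratios of 1.98 (1.31 to 2.89), 1.56 (1.21 to 1.98) and 2.25 (1.06 to 4.38). Ratios of CPM also depend on depth, and the CON B cell-like median was 1946 UMIs. By cells, all barcodes included, an Igha UMI was seen in 2.74%, 7.38% and 0.674% of B cell-like cells. In hepatocyte-like cells these shares were 2.39%, 6.765% and 0.608% at full depth. Thinned to 1000 UMIs they were 1.35%, 3.69% and 0.366% in B cell-like cells. The thinned shares of hepatocyte-like cells were 0.533%, 2.70% and 0.250%, so the classes were further apart when thinned. Jchain had 3.13, 28.5 and 3.21 CPM in B cell-like and 5.15, 21.3 and 2.02 CPM in hepatocyte-like cells, and the intervals of the 3 Jchain ratios include 1. Ighg1 in HFD was at 22.5 and 17.0 CPM. Against T cell-like cells the Igha ratios were 3.46 (1.80 to 7.03), 1.79 (1.33 to 2.39) and 1.70 (0.691 to 4.12). Ighg2b in B cell-like cells had 1 UMI in CON and 5 in CCL4. In HFD its ratio to hepatocyte-like cells was 1.634 (1.159 to 2.255), and that of Ighg2c 1.505 (1.055 to 2.097). Against T cell-like cells these ratios were 1.79 (1.198 to 2.651) and 0.984 (0.672 to 1.415). Of 114 assigned B cell-like cells of HFD, Igha led in 2, Ighg2b in 2 and Ighg3 in 1. Of 68 in CCL4, Igha led in 1 and Ighg3 in 1. Whether B cell-like cells express Jchain or switched classes was not tested, and no such expression is read from these low levels. Igkc, Ighm, Ighd and Iglc2 in B cell-like cells were further above the hepatocyte-like level. Igkc was at 190.5, 8.35 and 46.2 times that level, and Ighm at 585, 71.6 and 80.3 times.

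**Figure D4:**
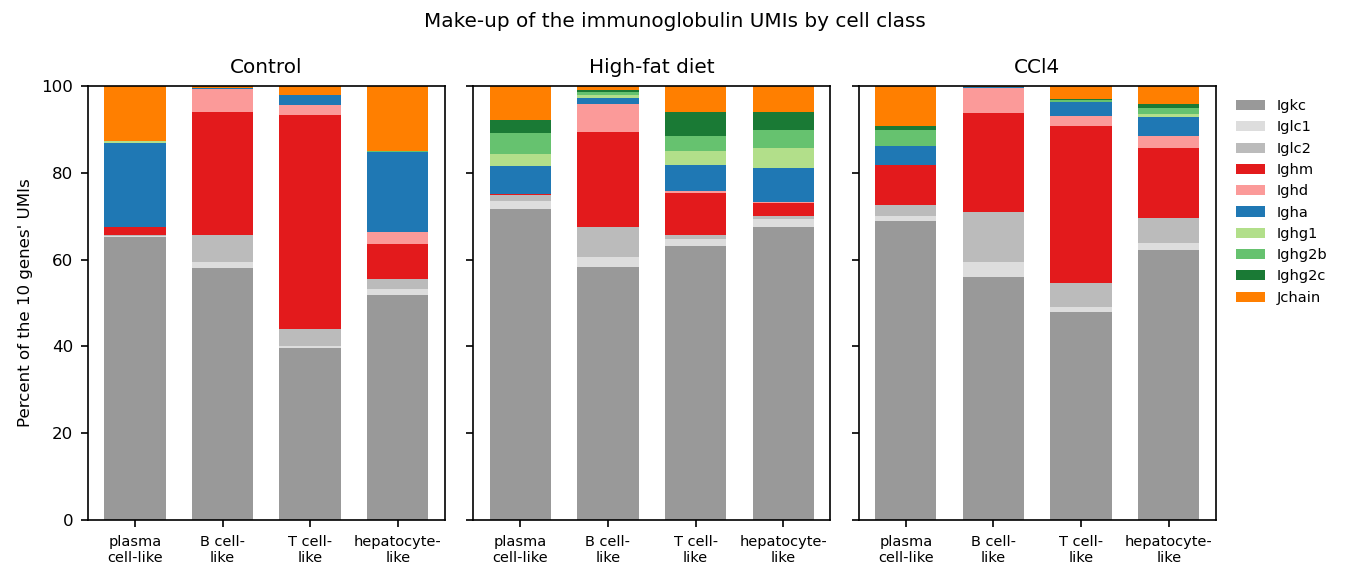
Percent of the UMIs of the 10 genes that each gene holds (vertical axis), in 4 cell classes (horizontal axis) of the 3 libraries; barcodes with at least 5% of their UMIs in these genes are left out of the T cell-like and hepatocyte-like bars. In HFD Igkc holds 67.5% of the hepatocyte-like bar and 71.7% of the plasma cell-like bar, and in CON the T cell-like bar has 49.4% Ighm.

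The mixture of genes in hepatocyte-like cells was set beside that of plasma and B cell-like cells of the same library. In HFD the hepatocyte-like UMIs were 67.5% Igkc, 7.73% Igha, 4.74% Ighg1 and 2.97% Ighm, beside 71.4%, 6.52%, 2.61% and 0.489% in plasma and B cell-like cells together. In CON the values were 51.8% and 63.8% for Igkc, 18.4% and 15.6% for Igha, 14.95% and 10.31% for Jchain, and 8% and 7.15% for Ighm. In CCL4 they were 62.3% and 67.7% for Igkc, 4.08% and 8.29% for Jchain, and 16.2% and 10.4% for Ighm. Ighg2b had 1.36% and 3.17% there, and Ighg1 0.545% and 0.0563%. T cell-like cells differed from hepatocyte-like cells in Ighm. It was 49.4% of their UMIs of the 10 genes in CON, 9.59% in HFD and 36.2% in CCL4, against 8%, 2.97% and 16.2% in hepatocyte-like cells. Its level was 81.9 against 2.75 CPM in CON (ratio 29.8, 23.1 to 38.7), 39.4 against 10.7 CPM in HFD (ratio 3.70) and 33.0 against 8.02 CPM in CCL4 (ratio 4.12). Igkc differed by 3.68 (3.15 to 4.29), 1.07 (1.01 to 1.14) and 1.42 (1.21 to 1.67) times in CPM, which depends on depth. Per 100 cells, Igkc had 18.5 against 9.88 UMIs in CON, 62.1 against 65.4 in HFD and 9.58 against 8.875 in CCL4. Ighm had 23.1 against 1.525, 9.43 against 2.88 and 7.23 against 2.32. The CPM ratio was thus larger for Ighm than for Igkc in every library, with intervals that do not overlap. Of the 1375 T cell-like cells of CON, 205 held at least 1 Ighm UMI. The T cell-like level was not particular among the other classes, since the median Ighm level over 9, 9 and 8 of them was 94.5, 32.5 and 61.3 CPM in CON, HFD and CCL4, and the hepatocyte-like level was below that median in each.

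Outside these classes, Ighm was highest in plasmacytoid dendritic cell-like cells, a type of interferon-producing cell. It stood at 1006 CPM in CON (938 to 1077), 548 in HFD (462 to 646) and 528 in CCL4 (465 to 597), and 187 of 195, 67 of 97 and 135 of 196 cells held a UMI of it. Igkc in the same cells was at 191, 402 and 203 CPM and Ighd at 20.8, 15.5 and 12.6 CPM. The Ighm level was below that of B cell-like cells in each library and far above that of hepatocyte-like cells, while Igkc was the lesser of the pair in each.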

How the data were processed

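Livers of 6 mice, 2 pooled in each of 3 libraries, were measured by droplet single-cell RNA sequencing. The deposited files hold UMI counts per gene and barcode, which the authors made with Cell Ranger and which are raw, not normalized. The submitters' processing notes also name Seurat and the build GRCm39, whereas the methods of the study name mm10, and the files carry no coordinates. Positions and sequences were therefore taken from GENCODE M21 (GRCm38) as annotation only, in which 52081 of 55357 gene IDs were found. No column of another series was present (0).

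Of 36990 barcodes, 36945 passed minimums of 500 UMIs and 200 genes and a mitochondrial limit of 30% and were not marked by Scrublet. Scrublet marked only 2, 1 and 3 barcodes in CON, HFD and CCL4, which were removed, and so had not worked. As an alternative, the top 8% by doublet score were removed from every library. Counts were scaled to 10000, logged, reduced to 2000 variable genes and 30 components, and clustered (Leiden, resolution 1.0, 15 neighbours, scanpy 1.11.5, Python 3.11.15), leaving out 433 immunoglobulin features. A cluster was named from fixed markers, of which at least 3 had to be raised 1.5 times over the median of clusters and detected in 10% of cells, a baseline set after the clusters were seen.

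UMIs were summed by class and library. Each condition had 1 library, so conditions were not tested and p-values are absent. Intervals are exact 95% Poisson limits for CPM, Clopper-Pearson limits for shares and conditional binomial limits for ratios (scipy 1.17.1), and cover counting error only. Where no UMI was seen, the upper limit is given. For correlations log2(CPM + 5) was used. The genes and lists were chosen with earlier results of these data known. Named were the 10 genes, the other constant region genes, up to 4 genes of each list, the 3 highest and 3 lowest ratios of plasma cell-like to B cell-like cells, the 3 genes most like Ighm, Igha, Igkc and Jchain, and the leading variable genes. The scripts were tested on simulated data. Alternatives changed the cell filters, the clustering, the scaling, the chain assignment and the CPM minimum.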

Additional observations from a re-analysis of the deposited data

Results flagged for a closer look

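The ratio of Ighm between plasma cell-like and B cell-like cells differed between the libraries, at 3.148 in CON, 0.6494 in HFD and 34.35 in CCL4. The counting intervals of the 3 ratios do not overlap, but with 1 library for each condition the difference between conditions was not tested. The CON value has 1158 of its 1211 plasma cell-like UMIs in 1 cell. The HFD value has 205 and 162 of its 580 in 2 cells, and is 0.982 when scaled to UMIs outside the 10 genes and mitochondrial genes. Whether the ratios differ in side without these cells was not tested.

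Signal was also present in constant region genes outside the list. Ighg3, the gene of IgG3, had 285 UMIs in plasma cell-like cells of HFD, of which 271 came from 1 cell, and 443 in CCL4, of which 340 came from 1 cell, against 0 in CON. Iglc3 had 485 UMIs in HFD and 197 in CCL4, beside 46 in CON. Its coding end is nearly the same as that of Iglc2, so their split is uncertain.

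Outside the plasma cell-like class, 18 barcodes of HFD and 11 of CCL4 had at least 5% of their UMIs in the 10 genes, against 2 of CON. In HFD their main heavy chains included Igha in 4, Ighg1 in 3, Ighg2b in 3 and Ighg2c in 7, and in CCL4 Ighm in 6, Igha in 3 and Ighg2c in 1. No barcode lacked a main heavy chain, and other heavy chain genes are not listed here. Whether they were plasma cells, doublets or droplets rich in free RNA was not tested.

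Lambda variable genes had 2912 UMIs in plasma cell-like cells of HFD and 220 in CCL4, against 84 in CON. Cells with kappa as the main light chain held 2548 of those of HFD and 185 of those of CCL4.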

How the results depend on the processing

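No paired analysis was possible because each condition had 1 library. With 2 pooled mice and 1 library for each condition, neither mice nor libraries can be separated from treatment, and the 26 plasma cell-like cells of CON limit every plasma cell-like value of CON. No ratio of plasma cell-like to B cell-like cells that was recalculated changed its side of 1 under any alternative. Levels and shares have no such side, and the order of libraries could change. The T cell-like sums were 758.5 CPM in CON and 659.1 in HFD, but 604.1 and 662.3 at a mitochondrial limit of 10%. The share of plasma cell-like cells with Igha as the main heavy chain stayed within its interval in 29 of 29 recalculations, and single levels in 486 of 590. The cause of the changes below was not tested.

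When each library was clustered on its own, CON had no plasma cell-like class, so its plasma cell-like values could not be recalculated, and its B cell-like cells stood at 16602 CPM of Igkc, 3528 of Igha and 2499 of Jchain. In HFD, Igha in B cell-like cells was then 119 CPM, and its ratio 190.5 in place of 518.2. Jchain in B cell-like cells of CON went from 30.9 to 3.839 CPM without the 8% of barcodes with the highest doublet scores (ratio 10339 in place of 1237) and to 46.35 CPM at 2000 UMIs (ratio 824.5). Scaling to UMIs outside the 10 genes and mitochondrial genes leaves fewer UMIs to divide by, and so raises plasma cell-like levels in every library. In HFD, where the rise was largest, the level of Igkc went from 243495 to 373388 CPM. At a minimum of 20 CPM in place of 50, genes higher in plasma cell-like cells numbered 732, 344 and 690 in place of 410, 193 and 308 for CON, HFD and CCL4, and lower ones 2312, 1834 and 1252 in place of 1212, 994 and 608.

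The summed level in T cell-like cells of CON (758.5 CPM) was 604.1 at a mitochondrial limit of 10%, 663.1 at 2000 UMIs, 685.2 without high doublet scores, 794.8 and 623.9 at resolutions 0.5 and 2.0, 388.6 with libraries clustered alone, 570.9 with immunoglobulin genes in the clustering and 155 with 4000 variable genes. That of HFD (659.1) was 394.7 at 2000 UMIs, 578.9 without high doublet scores, 700.1 and 715.7 at resolutions 0.5 and 2.0 and 418.2 with libraries alone. That of CCL4 (307.1) was 443.9 at 2000 UMIs, 88.53 without high doublet scores, 371.8 and 430.1 at both resolutions, 83.39 with libraries alone, 81.01 with immunoglobulin genes and 218.1 with 4000 variable genes. In hepatocyte-like cells CON (34.42) gave 30.67 at the mitochondrial limit, 23.36 at 2000 UMIs, 32.23 without high doublet scores and 23.31 with libraries alone. HFD (551.3) gave 520.9, 531.4 and 617.4 under the first 3 of these, 445.1 at resolution 0.5, 404.7 with libraries alone and 367 with immunoglobulin genes. CCL4 (124.2) gave 115.6 without high doublet scores, 68.94 at resolution 0.5, 116.3 with libraries alone and 57.99 with immunoglobulin genes. Without barcodes of at least 5% in the 10 genes, an alternative chosen after seeing the data, the T cell-like sums were 165.9, 411 and 91.27, and the hepatocyte-like sums of HFD and CCL4 were 359.1 and 49.38.

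The share of plasma cell-like UMIs in the 10 genes was 31.06%, 34.33% and 27.69% without high doublet scores, 30.51%, 34.12% and 25.39% with 4000 variable genes, 34.27% and 23.3% in HFD and CCL4 with libraries alone, 33.89% and 25.02% there with immunoglobulin genes, and 24.86% in CCL4 at 2000 UMIs. The share of kappa among B cell-like cells was 99.13%, 100% and 100% when 10 chain UMIs and 80% were required, and 96.62% in HFD when 2 UMIs sufficed. Leaving out the B cell-like cluster led by Ccl5 and Gzma as well, also chosen after seeing the data, moved no kappa share beyond its interval.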
